A study of Bos taurus with 15 samples.

Results

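The unfolded protein response and the integrated stress response were followed through 10 bovine genes, XBP1, ATF4, ATF6, DDIT3, ERN1, HERPUD1, TRIB3, ASNS, PPP1R15A and DDIT4, in pools of in vitro produced blastocysts. The genes were chosen by symbol, and all 10 were found by their NCBI Gene identifier in the filtered table of 10832 genes. None was lost to the authors' filter on low values. Blastocysts were cultured without oviductal extracellular vesicles (Co), with fresh vesicles (FeEVs) or with vesicles that had been frozen and thawed (FoEVs), and 5 libraries represented each treatment. Oviductal extracellular vesicles (oEVs) are membrane-bound particles released into the oviduct, here collected from postovulatory cows at a slaughterhouse, and each batch was divided so that FeEVs and FoEVs differed by the freezing. All groups shared in vitro fertilization and in vitro culture, no group carried a genetic change, and the labels call the embryos day 7 blastocysts. Each library came from 1 pool of 8 to 14 embryos and from 1 ng of total RNA. The 15 pools had been selected from a larger number for RNA quality and concentration.

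The endoplasmic reticulum (ER) folds secreted and membrane proteins, and 3 sensors in its membrane respond when unfolded protein accumulates. ERN1 (IRE1) splices the mRNA of XBP1, ATF6 is cut to release a transcription factor, and EIF2AK3 (PERK) phosphorylates the translation factor eIF2. Other kinases phosphorylate eIF2 when amino acids or haem are scarce or viral RNA is present, and this shared branch, the integrated stress response, favours translation of the transcription factor ATF4. ATF4 raises genes of amino acid supply and, with DDIT3 (CHOP), genes of prolonged stress, while PPP1R15A (GADD34) brings a phosphatase back to eIF2. Preimplantation embryos are known to be sensitive to this stress in culture. Reads were counted per gene, so spliced and unspliced XBP1 mRNA were not separated, and neither the translation of ATF4 nor the cleavage of ATF6 was measured.

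Libraries held between 2136713 and 4058887 counts, with medians of 2779168 (Co), 3065710 (FeEV) and 3781117 (FoEV). Every gene value is given in CPM, counts relative to the library total after scaling by the trimmed mean of M values (TMM). Of the markers of blastocyst cells, all 9 of the trophectoderm, all 5 of the inner cell mass and 6 of 7 of the hypoblast were in the filtered table. The summed trophectoderm markers ran from 6729 to 9219 CPM in Co, from 7178 to 11039 in FeEV and from 8635 to 11760 in FoEV. The summed inner cell mass markers ran from 443 to 543, from 448 to 548 and from 422 to 663 CPM, and the summed hypoblast markers from 6443 to 8990, from 5624 to 8026 and from 4742 to 7434. Markers of cumulus and granulosa cells summed to 23.8 to 44.5 CPM, those of the oviduct epithelium to 5.89 to 14.2 and those of leukocytes to 3.16 to 7.09. The part of these shifts in the results was not tested. In pools of whole embryos, fewer cells that express a gene and less RNA per cell cannot be told apart.

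In FoEV against Co, 5 of the 10 genes had a log2 fold change above 0, namely ATF4, DDIT3, TRIB3, ASNS and DDIT4, and the other 5 had one below 0. No gene of the 10 passed an adjusted p of 0.05 in any of the 3 comparisons (quasi-likelihood F test of edgeR, Benjamini-Hochberg adjustment over 10832 genes), nor with a likelihood ratio test in edgeR or where the Wald test of DESeq2 gave an adjusted p. Over all genes, 0.00923% passed in FoEV against Co, 0% in FeEV against Co and 0% in FoEV against FeEV. At an unadjusted p under 0.05, ATF4 and TRIB3 were higher in FoEV than in Co, where 8.18% of all genes were, and HERPUD1 and PPP1R15A were lower, where 6.88% were. In FeEV against Co, ASNS was higher at this threshold, beside 1.83% of all genes, and PPP1R15A was lower, beside 2.32%. In FoEV against FeEV, 0 of the 10 genes passed it in either direction, beside 4.83% of all genes higher and 3.69% lower. Groups without overlap in CPM were seen for ASNS in FeEV against Co, as for 0.951% of all genes, and for 0 of the 10 genes in FoEV against Co (2.6% of all genes) and in FoEV against FeEV (1.5%). Each treatment enters 2 of the 3 comparisons, which therefore share its libraries.

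**Figure D1:**
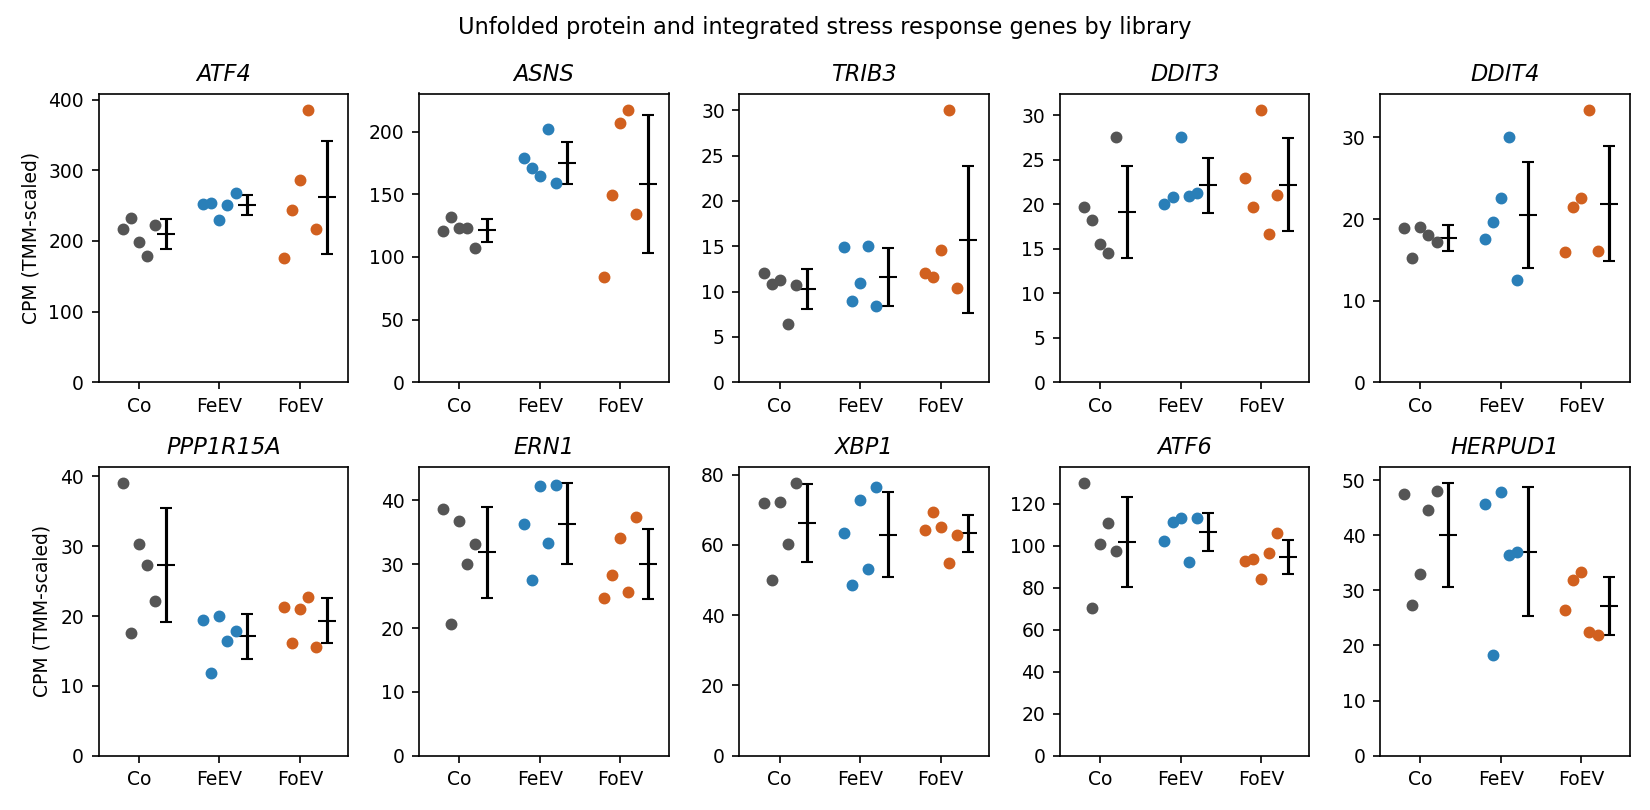
CPM of each gene (vertical axes from 0) in the 5 libraries of Co, FeEV and FoEV, in order of replicate number, with the mean and SD beside them. The 5 FeEV libraries of ASNS sit between 159 and 202 CPM, all above the Co libraries, and 1 FoEV library of TRIB3 stands at 30.0 CPM.

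ATF4 (NCBI Gene 509107), the transcription factor at the centre of the integrated stress response, had 217, 233, 198, 179 and 222 CPM in the 5 Co libraries in order of replicate number. The FeEV libraries had 252, 253, 229, 251 and 268 CPM. The FoEV libraries had 176, 244, 287, 386 and 216 CPM. The FeEV libraries lay close together, 4 of 5 above every Co library, whereas the FoEV libraries ran from below every Co library to above every other library. Mean CPM was 210 ± 21.2 for Co, 251 ± 13.8 for FeEV and 262 ± 80.3 for FoEV (SD, n = 5 each). FoEV against Co had a log2 fold change of 0.32 (SE 0.15, unadjusted p = 0.0471, adjusted p = 0.324), and the two-sided exact permutation test over the 252 assignments of libraries gave p = 0.246. The log2 fold change was 0.14 (unadjusted p = 0.245) without FoEV replicate 4 and 0.43 (unadjusted p = 0.0027) without FoEV replicate 1, and the unadjusted p was under 0.05 in 3 of the 10 fits that left out 1 library, those without FoEV replicate 1, FoEV replicate 5 or Co replicate 2. With the size factors of DESeq2 in place of TMM the unadjusted p was 0.0541. For FeEV against Co the log2 fold change was 0.26 (SE 0.15, unadjusted p = 0.101, adjusted p = 1), and the exact permutation p was 0.0159. The unadjusted p of edgeR was 0.00819 with these 2 groups alone, 0.0327 with the likelihood ratio test and 0.0112 with no filter on low counts. It was 0.105 with the Wald test of DESeq2, and in edgeR 0.102 with the filter of the methods and 0.115 without rRNA genes. The means of FoEV and FeEV did not differ beyond the spread of the libraries (log2 fold change 0.06, 95% interval −0.25 to 0.37). Counting alone would give a coefficient of variation of 3.26% among the FoEV libraries, and it was 30.7%.

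ASNS (514209), which makes asparagine and is a classical target of ATF4, had 121, 132, 123, 123 and 107 CPM in Co. In FeEV it had 179, 171, 164, 202 and 159 CPM. In FoEV it had 84.1, 149, 207, 217 and 134 CPM. All FeEV libraries were above all Co libraries, and 4 of 5 FoEV libraries were, while FoEV replicate 1 was the lowest of all 15. The order of the means was FeEV (175 ± 16.9), FoEV (158 ± 54.9) and Co (121 ± 8.95; SD, n = 5 each). FeEV was 1.44-fold higher than Co (log2 fold change 0.53, SE 0.19, unadjusted p = 0.0121, adjusted p = 1). The study also picked ASNS from these libraries as higher with FeEVs, so its direction is not independent evidence. Its exact permutation p was 0.00794, the smallest that 5 libraries against 5 can give, and the unadjusted p stayed under 0.05 in the 10 fits that left out 1 Co or FeEV library. FoEV against Co had a log2 fold change of 0.38 (SE 0.19, unadjusted p = 0.0576, adjusted p = 0.348, exact permutation p = 0.262), which was 0.54 (unadjusted p = 0.000283) without FoEV replicate 1 and 0.24 (unadjusted p = 0.183) without FoEV replicate 4. FoEV and FeEV, neighbours in this order, were not told apart (log2 fold change −0.15, 95% interval −0.54 to 0.24), and neither were FoEV and Co by this test. FoEV against Co did have an unadjusted p under 0.05 with the Wald test of DESeq2 (unadjusted p = 0.0394), edgeR's likelihood ratio test (unadjusted p = 0.0119) and edgeR with no filter on low counts (unadjusted p = 0.00251). The unadjusted p of edgeR stayed above 0.05 with these 2 groups alone (0.0992) and with the size factors of DESeq2 (0.0641). It also did without rRNA genes (0.0639) and with the filter of the methods (0.0594).

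TRIB3 (538465), a pseudokinase that is induced by ATF4 and DDIT3 and restrains them, had 12.03, 10.8, 11.3, 6.42 and 10.7 CPM in Co. It had 14.9, 8.91, 10.95, 15.0 and 8.38 CPM in FeEV. It had 12.04, 11.6, 14.6, 30.0 and 10.4 CPM in FoEV. The groups overlapped, and FoEV replicate 4 stood apart from every other library. The log2 fold change of FoEV against Co was 0.59 (SE 0.27, unadjusted p = 0.0422, adjusted p = 0.312, exact permutation p = 0.127). Without FoEV replicate 4 it was 0.24 (unadjusted p = 0.288), and the unadjusted p was under 0.05 in 4 of 10 fits that left out 1 library, those without Co replicate 1 or FoEV replicate 1, 2 or 5. The likelihood ratio test with robust dispersion gave 0.35 (unadjusted p = 0.143). FeEV against Co had a value of 0.17 (SE 0.28, unadjusted p = 0.563) and FoEV against FeEV of 0.42 (SE 0.27, unadjusted p = 0.129). These values rest on 16 to 90 counts per library, for which counting alone gives a coefficient of variation of 18.8% in Co, where 21.5% was measured, and of 13.4% in FoEV, where it was 51.8%.

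DDIT3 (777788), the transcription factor CHOP that is linked to cell death under lasting ER stress, had 19.7, 18.2, 15.5, 14.4 and 27.5 CPM in Co. The FeEV libraries had 19.97, 20.8, 27.5, 21.0 and 21.2 CPM, and the FoEV libraries had 22.9, 19.7, 30.6, 16.7 and 21.0. The highest Co library was level with the highest FeEV library, and the groups overlapped. The log2 fold change was 0.23 (95% interval −0.15 to 0.61, unadjusted p = 0.227) in FoEV against Co and 0.22 (95% interval −0.16 to 0.61, unadjusted p = 0.248) in FeEV against Co. With 1 library left out, FoEV against Co ran from 0.08 (without FoEV replicate 3, edgeR's unadjusted p at 0.667) to 0.39 (without Co replicate 5, 0.0423), and FeEV against Co from 0.13 (without FeEV replicate 3, 0.525) to 0.38 (without Co replicate 5, 0.0484).

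DDIT4 (529235), an inhibitor of the growth kinase complex mTORC1 and a stress target, had 19.0, 15.2, 19.0, 18.1 and 17.2 CPM in Co. It had 17.6, 19.7, 22.5, 30.1 and 12.6 CPM in FeEV and 16.0, 21.4, 22.6, 33.4 and 16.1 CPM in FoEV. The groups overlapped, and the libraries above 20 CPM were all from the oEV groups. Mean CPM was 17.7 ± 1.58 for Co, 20.5 ± 6.47 for FeEV and 21.9 ± 7.10 for FoEV (SD, n = 5 each). The log2 fold change was 0.29 (SE 0.21, unadjusted p = 0.181) in FoEV against Co and 0.19 (SE 0.22, unadjusted p = 0.395) in FeEV against Co. These values were 0.10 without FoEV replicate 4 and 0.026 without FeEV replicate 4.

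PPP1R15A (514688), the stress-induced subunit that directs the phosphatase to eIF2 and so ends the response, was lower with both kinds of oEVs at the unadjusted threshold. The Co libraries had 39.0, 17.5, 30.3, 27.3 and 22.2 CPM. The FeEV libraries had 19.4, 11.9, 20.02, 16.4 and 17.9 CPM, and the FoEV libraries had 21.3, 16.1, 20.9, 22.7 and 15.5. Co replicate 2 lay among the oEV libraries, and 3 Co libraries lay above every library of both oEV groups. The order of the means was Co (27.3 ± 8.18), FoEV (19.3 ± 3.26) and FeEV (17.1 ± 3.24; SD, n = 5 each). FeEV against Co had a log2 fold change of −0.66 (SE 0.20, unadjusted p = 0.00257, adjusted p = 1, exact permutation p = 0.0317), with an unadjusted p under 0.05 in all 10 fits that left out 1 library. The value for FoEV against Co was −0.50 (SE 0.19, unadjusted p = 0.0153, adjusted p = 0.220, exact permutation p = 0.0714). Without Co replicate 1 it was −0.34 (unadjusted p = 0.0847). FoEV and FeEV did not differ beyond their spread (0.16, 95% interval −0.24 to 0.57).

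HERPUD1 (613577), an ER membrane protein of ER-associated degradation that responds to all branches, was lower in FoEV at the unadjusted threshold. Its Co libraries had 47.4, 27.3, 32.9, 44.6 and 48.0 CPM. Its FeEV libraries had 45.6, 18.2, 47.9, 36.4 and 36.9 CPM, and its FoEV libraries had 26.4, 31.8, 33.3, 22.4 and 21.8. The 5 FoEV libraries were narrow in range, with 3 below every Co library, while FeEV replicate 2 was the lowest of all. Mean CPM was 40.0 ± 9.36 for Co, 37.0 ± 11.7 for FeEV and 27.1 ± 5.29 for FoEV (SD, n = 5 each). FoEV against Co had a log2 fold change of −0.55 (SE 0.22, unadjusted p = 0.0200, adjusted p = 0.236, exact permutation p = 0.0397), and the unadjusted p stayed under 0.05 in 7 of 10 fits that left out 1 library, all but those without Co replicate 1, Co replicate 5 or FoEV replicate 5. The adjusted p was 0.0317 when no filter on low counts was applied, in a fit that called 173 of 25470 genes where the main fit called 1. FoEV against FeEV had a log2 fold change of −0.45 (SE 0.22, unadjusted p = 0.0506, adjusted p = 0.578), or −0.62 (unadjusted p = 0.00175) without FeEV replicate 2, and FeEV against Co of −0.10 (95% interval −0.55 to 0.35).

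For ERN1, XBP1 and ATF6 no comparison passed the unadjusted threshold. ERN1 (112442685), the ER kinase and nuclease IRE1, had 38.6, 20.6, 36.8, 30.1 and 33.2 CPM in Co, 36.4, 27.5, 42.2, 33.2 and 42.5 in FeEV, and 24.8, 28.3, 34.2, 25.7 and 37.3 in FoEV. The groups overlapped in all comparisons. The log2 fold change was −0.08 (95% interval −0.43 to 0.26) in FoEV against Co, 0.20 (−0.15 to 0.54) in FeEV against Co and −0.28 (−0.62 to 0.06) in FoEV against FeEV. XBP1 (541236), whose spliced mRNA encodes the transcription factor of the ERN1 branch, had 71.8, 49.9, 72.2, 60.2 and 77.6 CPM in Co, 63.5, 48.6, 72.9, 53.3 and 76.5 in FeEV, and 64.4, 69.4, 65.0, 54.8 and 63.0 in FoEV. Its log2 fold change was −0.06 (95% interval −0.34 to 0.21) in FoEV against Co, −0.07 (−0.34 to 0.21) in FeEV against Co and 0.0020 (−0.27 to 0.28) in FoEV against FeEV. The FoEV libraries of XBP1 all lay within the range of the Co libraries.

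ATF6 (530610), the sensor that becomes a transcription factor for ER chaperones, had 130, 70.5, 101, 111 and 97.7 CPM in Co, 102, 111, 114, 92.5 and 113 in FeEV, and 92.6, 93.8, 84.0, 96.5 and 106 in FoEV. Both oEV groups lay within the range of Co. The log2 fold change was −0.11 (95% interval −0.36 to 0.15) in FoEV against Co, 0.07 (−0.18 to 0.32) in FeEV against Co and −0.17 (−0.42 to 0.08) in FoEV against FeEV. HSPA5 (BiP), the chaperone that holds the sensors inactive and is the usual readout of ATF6, averaged 921 ± 147 CPM without oEVs, 878 ± 166 with FeEVs and 871 ± 164 with FoEVs (SD, n = 5 each). Its log2 fold change was −0.08 (SE 0.15, adjusted p = 0.833) in FoEV against Co by the edgeR test.

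**Figure D2:**
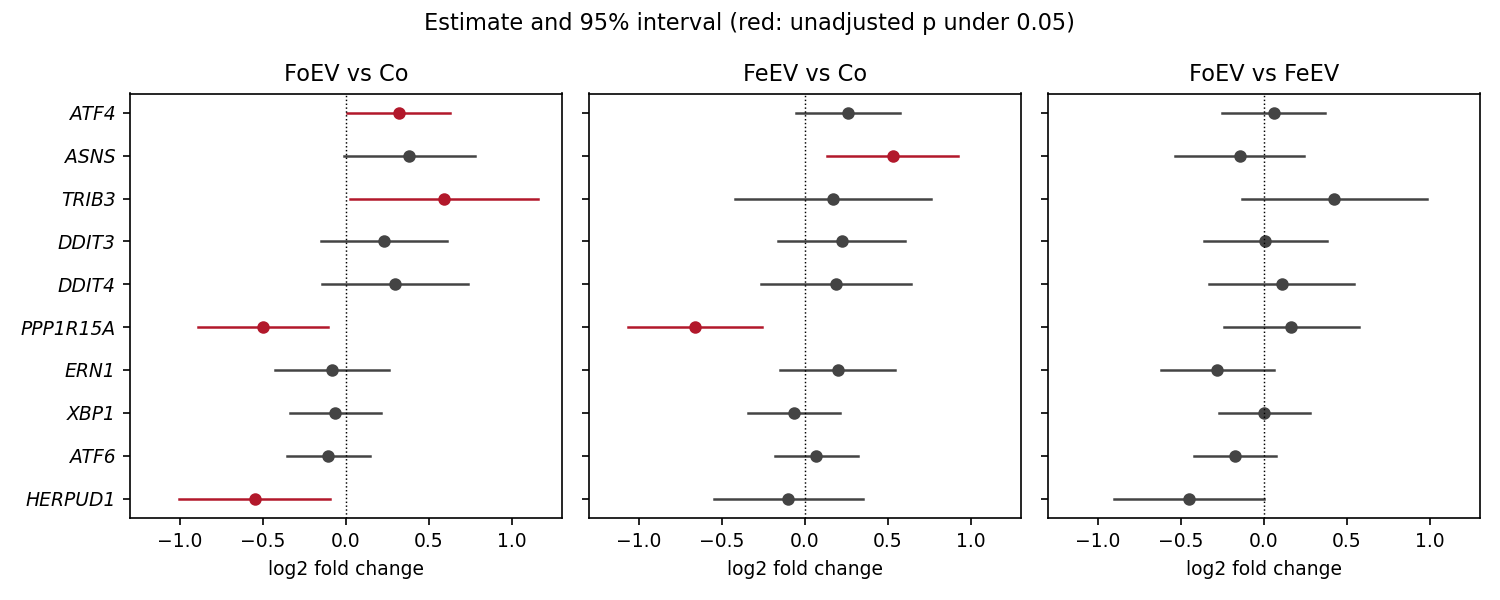
Log2 fold change of each gene in the 3 comparisons (points, horizontal axis) with its 95% interval from the edgeR fit (lines). Red marks an unadjusted p under 0.05, reached by ATF4, TRIB3, PPP1R15A and HERPUD1 in FoEV vs Co and by ASNS and PPP1R15A in FeEV vs Co.

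The genes differed in how far the 15 libraries spread, between as well as within treatments. The highest of the 15 libraries exceeded the lowest 4.68-fold for TRIB3, 3.28-fold for PPP1R15A, 2.66-fold for DDIT4, 2.64-fold for HERPUD1 and 2.59-fold for ASNS. XBP1 had the smallest such ratio, 1.59, and ATF6 the next, 1.84. The biological coefficient of variation of edgeR within treatments was 0.273 for TRIB3, above that of 91.3% of all genes, 0.219 for HERPUD1 (81.8%) and 0.214 for DDIT4 (80.3%). That of XBP1 was 0.139 (43.5%) and that of ATF6 0.132 (37.4%), below the common value of 0.159.

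Much of the spread of ATF4 and ASNS came from FoEV replicates 4 and 1, at opposite ends. FoEV replicate 4 was the highest of the 15 libraries for 4 of the 10 genes, ATF4, TRIB3, ASNS and DDIT4, and FoEV replicate 1 was the lowest for ATF4 and ASNS. Over all 10832 genes, 13.3% were highest in FoEV replicate 4 and 8.43% were lowest in FoEV replicate 1. DDIT3 did not share this order, with 16.7 CPM in FoEV replicate 4 and 22.9 in FoEV replicate 1. FoEV replicate 4 also held the highest share of counts on ribosomal RNA genes, 28.2%, and the highest sum of inner cell mass markers, 663 CPM, whereas FoEV replicate 1 held 15.9% and the highest sum of trophectoderm markers, 11760 CPM. Among the Co libraries, replicate 5 held 28.0% on ribosomal RNA genes with 222 CPM of ATF4. Co replicate 2 held 15.5%, the lowest share of the 15 libraries, with 233 CPM. The part of these shares and marker sums in the ATF4 values was not tested. At the other end, Co replicate 2 was the lowest library for ATF6 and ERN1, and FeEV replicate 2 for XBP1, HERPUD1 and PPP1R15A. These libraries had 6955 and 7178 CPM of trophectoderm markers, near the low end of all 15.

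**Figure D3:**
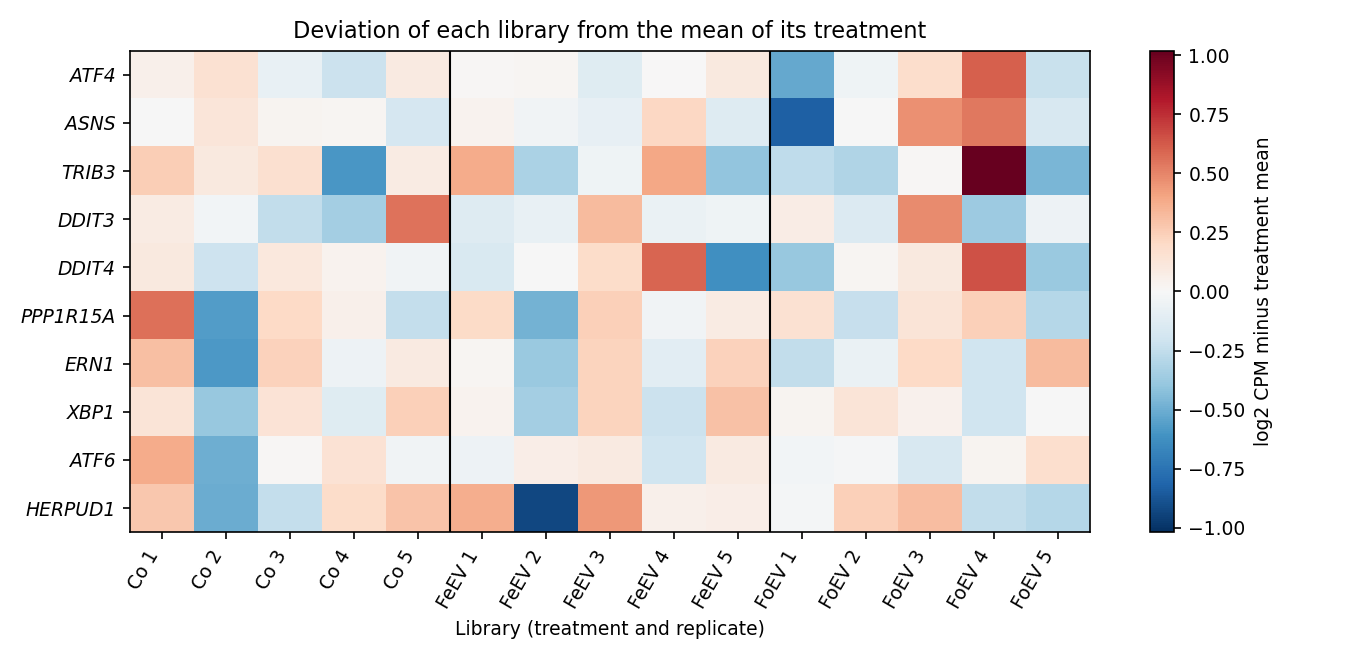
Log2 CPM of each gene (rows) in each library (columns, grouped by treatment) minus the mean of that treatment. FoEV 4 is above its mean for ATF4, ASNS, TRIB3 and DDIT4, FoEV 1 is below for ATF4 and ASNS, and Co 2 and FeEV 2 are below for ERN1, XBP1 and HERPUD1.

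Whether regulators and targets varied together was asked in 10 pairs, over the 15 libraries, as deviations of log2 CPM from the treatment means, with permutation within treatments and adjustment over the 10 pairs. XBP1 and DNAJB9, an ER co-chaperone and target of XBP1, had Pearson r = 0.84 (permutation p = 0.0005, adjusted p = 0.005) and Spearman rho = 0.90 (permutation p = 8e-05, adjusted p = 0.0008). Without the 2 libraries farthest from the median of XBP1, Co replicate 2 and FeEV replicate 2, r was 0.84. ERN1 and XBP1 had r = 0.79 (permutation p = 0.00153, adjusted p = 0.00765) and rho = 0.68 (permutation p = 0.0104, adjusted p = 0.0519), and r was 0.59 without Co replicate 2 and FeEV replicate 2. XBP1 and HERPUD1 had r = 0.70 (permutation p = 0.0106, adjusted p = 0.0352) and rho = 0.64 (permutation p = 0.0256, adjusted p = 0.064). This r was 0.39 without the same 2 libraries, whose removal also narrows the range of XBP1.

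In the ATF4 branch, ATF4 and TRIB3 had r = 0.69 (permutation p = 0.0198, adjusted p = 0.0496) and rho = 0.45 (permutation p = 0.115, adjusted p = 0.213). That r was 0.46 without FoEV replicates 1 and 4, the farthest from the median of ATF4, and 0.33 without FoEV replicate 4 alone. ATF4 and ASNS had r = 0.82 (permutation p = 0.0332, adjusted p = 0.0663) and rho = 0.52 (permutation p = 0.128, adjusted p = 0.213), and r was 0.44 without FoEV replicates 1 and 4. The r of ATF4 and ASNS stayed at 0.77 without FoEV replicate 4 alone (permutation p = 0.066, adjusted p = 0.164), unlike that of ATF4 and TRIB3. Both relations were weaker without FoEV replicates 1 and 4, whose removal also narrows the range of ATF4. ASNS and TRIB3 had r = 0.55 (permutation p = 0.152, adjusted p = 0.244) and rho = 0.62 (permutation p = 0.0217, adjusted p = 0.064), with r = 0.37 without the same 2 libraries. DDIT3 varied with none of its partners at the threshold, with r = −0.07 to ATF4 (permutation p = 0.867, adjusted p = 0.952), −0.09 to TRIB3 (permutation p = 0.758, adjusted p = 0.947) and −0.02 to PPP1R15A (permutation p = 0.952, adjusted p = 0.952). The respective rho was 0.15, −0.04 and −0.06 (permutation p = 0.653, 0.889 and 0.861, adjusted p = 0.816, 0.889 and 0.889), and r without the 2 farthest libraries was 0.49, −0.20 and 0.08. ATF6 and HSPA5 had r = 0.38 (permutation p = 0.171, adjusted p = 0.244) and rho = 0.21 (permutation p = 0.464, adjusted p = 0.663), with r = 0.14 without Co replicates 1 and 2. The libraries also differ in cell makeup and depth, which every pair shares.

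**Figure D4:**
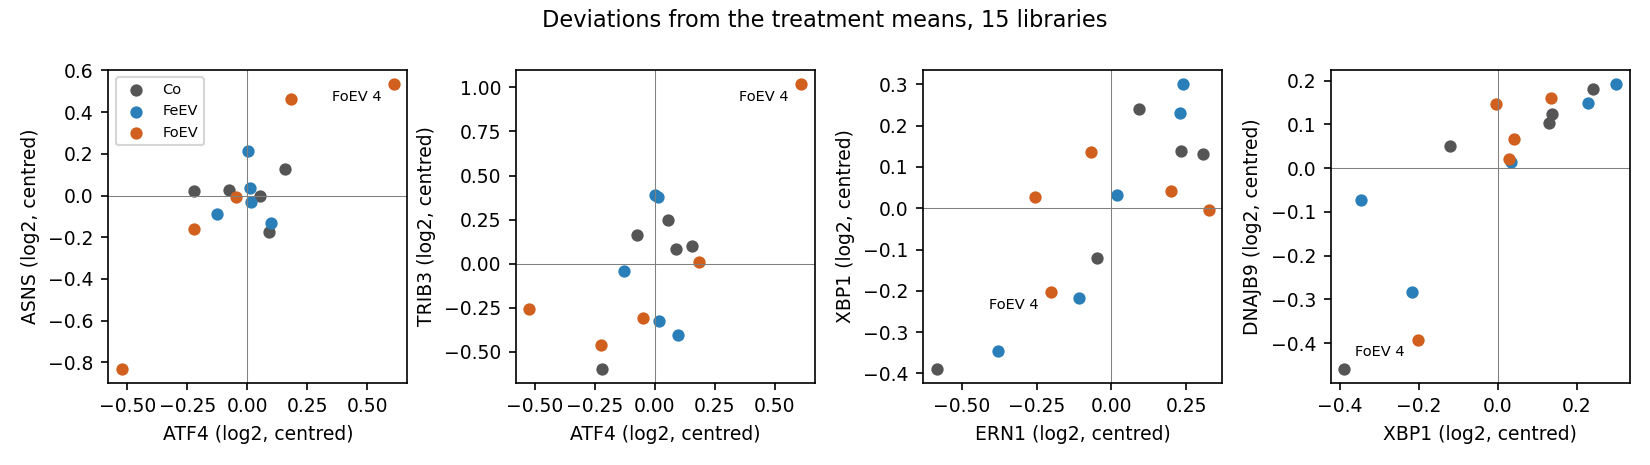
Deviations from the treatment means (log2 CPM) in the 15 libraries for ATF4 with ASNS and TRIB3, ERN1 with XBP1, and XBP1 with DNAJB9. In the first and second panels FoEV 4 stands at the upper right, and in the last the libraries lie along a line with r = 0.84.

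The genes whose treatment-centred pattern was most like that of each of the 10 were listed by Pearson r over the 15 libraries, as a description. For ATF4 these included TBL1X (r = 0.90) and GARS1 (0.90), the glycyl-tRNA synthetase. For ASNS they included LOC100847695 (0.90) and TARS1 (0.89), the threonyl-tRNA synthetase. For XBP1 they were APOA1 (0.93), HYOU1 (0.92), an ER chaperone, and TFG (0.91), and for ERN1 they were FBLN1 (0.92), CISD2 (0.89) and HYOU1 (0.88). For DDIT3 they were LSM1 (0.91) and the ribosomal protein genes RPL11 (0.87) and RPS12 (0.86). The lists of TRIB3 (PHC1, GFER and SLC25A20), DDIT4 (RSPH3, CD58 and MED15), HERPUD1 (MAFF, MTURN and MED22), PPP1R15A (EPHA1, AGAP3 and TMEM109) and ATF6 (MKNK2, NF2 and GABARAP) ran from 0.84 to 0.90.

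Around the 10 genes, 139 further genes of the pathway were taken in 8 lists, and 130 of them were in the filtered table. In FoEV against Co, 10 of the 130 (7.69%) were higher and 16 (12.3%) lower at an unadjusted p under 0.05, beside 8.18% and 6.88% of all genes. In FeEV against Co 5 (3.85%) were higher and 4 (3.08%) lower, beside 1.83% and 2.32%, and in FoEV against FeEV 2 (1.54%) were higher and 5 (3.85%) lower, beside 4.83% and 3.69%. No such share was tested against that of all genes. None passed an adjusted p of 0.05 by the edgeR test. The median log2 fold change of the 130 was −0.03, −0.01 and −0.01 in these comparisons, beside 0.01, 0.0039 and 0.0092 over all genes.

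The list of amino acid and stress genes linked to ATF4 had its median furthest above that of all genes. In FoEV against Co, 19 of its 24 tested genes (79.2%) had a log2 fold change above 0, beside 52.3% of all genes, and the median was 0.21. At the unadjusted threshold 3 genes (12.5%) were higher and 1 (4.17%) lower, beside 8.18% and 6.88% of all genes. CHAC1, which degrades glutathione, had a log2 fold change of 0.84 (SE 0.33, edgeR adjusted p = 0.230) and PYCR1, of proline synthesis, had 0.76 (SE 0.30, adjusted p = 0.232). SLC38A2, a carrier of neutral amino acids, had −0.55 (SE 0.13, adjusted p = 0.0758), from 305 ± 28.9 CPM in Co to 209 ± 42.5 in FoEV (SD, n = 5 each). With FeEVs, 17 of 24 (70.8%) were above 0 against Co, beside 51% of all genes, with a median of 0.21. At the unadjusted threshold 4 genes (16.7%) were then higher and 1 (4.17%) lower, beside 1.83% and 2.32% of all genes. Among the higher genes were SLC7A5, an exchanger of large neutral amino acids, with 0.56 (SE 0.23) and SLC6A9, a glycine carrier, with 1.04 (SE 0.45, on 2.70 CPM in Co). SLC7A5 also had 0.56 (SE 0.23) in FoEV against Co, and CHAC1 had 0.71 (SE 0.34) in FeEV against Co. In FoEV against FeEV, 10 of 24 were above 0 and the median was −0.04. All 11 aminoacyl tRNA synthetases linked to ATF4 had a log2 fold change above 0 in FeEV against Co, beside 51% of all genes, with a median of 0.12. YARS1 alone (9.09% of the list) was higher at the unadjusted threshold (0.31, SE 0.13), beside 1.83% of all genes. With FoEVs, 6 of 11 were above 0, with a median of 0.08.

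These lists followed the same FoEV libraries as ATF4. Of the 24 amino acid and stress genes, 11 (45.8%) were highest in FoEV replicate 4 and 9 (37.5%) lowest in FoEV replicate 1. Of the 11 synthetases, 5 (45.5%) were highest in the former and 7 (63.6%) lowest in the latter, beside the 13.3% and 8.43% of all genes. Without FoEV replicate 4, the median of the amino acid and stress genes in FoEV against Co was 0.07, with 0 higher and 1 lower at the unadjusted threshold. That of the synthetases was then 0.03. Over all genes it was 0.01.

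In FoEV against Co the median was −0.08 for 22 chaperones and folding enzymes, −0.06 for 20 genes of ER-associated degradation and −0.10 for 17 secretory genes linked to XBP1. Without FoEV replicate 4 these medians were 0.0018, −0.0035 and −0.05. In FeEV against Co, which holds no FoEV library, they were −0.07, −0.01 and −0.10, beside 0.0039 over all genes. Of the chaperones and folding enzymes, 1 (4.55%) was higher and 5 (22.7%) were lower at the unadjusted threshold, and 2 were higher and 3 lower without that library. DNAJB9, the XBP1 target above, had 38.2 ± 5.57 CPM in FoEV, below every Co library (60.8 ± 9.87; SD, n = 5 each), a separation seen in 2.6% of all genes, with a log2 fold change of −0.66 (SE 0.13, edgeR adjusted p = 0.0578), and −0.51 (SE 0.13, adjusted p = 0.903) in FeEV against Co. HSPA13, a microsomal chaperone of the HSP70 family, had −0.54 (SE 0.16), and SIL1, the exchange factor of BiP, had 0.62 (SE 0.22) in FoEV against Co and 0.50 (SE 0.22) against FeEV. DNAJC10, a disulfide reductase, had −0.26 and ERO1A, an oxidase of folding, −0.20 in FoEV against FeEV. Of the genes of ER-associated degradation, 2 (10%) were higher (AUP1, 0.31, and UBE2G2, 0.30) and 3 (15%) lower, among them HERPUD2 (−0.31) and EDEM3 (−0.24), against 1 higher and 0 lower without FoEV replicate 4. HERPUD2 had −0.32 in FeEV against Co, where every FeEV library was below every Co library, as for 0.951% of all genes in either direction. Of the secretory genes, SEC61B (0.37) and SSR4 (0.30) were higher and SSR3 (−0.29) and SEC63 (−0.20) lower, and SSR4 also had 0.34 in FoEV against FeEV. These 2 of 17 in each direction (11.8%) compare with 8.18% of all genes higher and 6.88% lower.

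**Figure D5:**
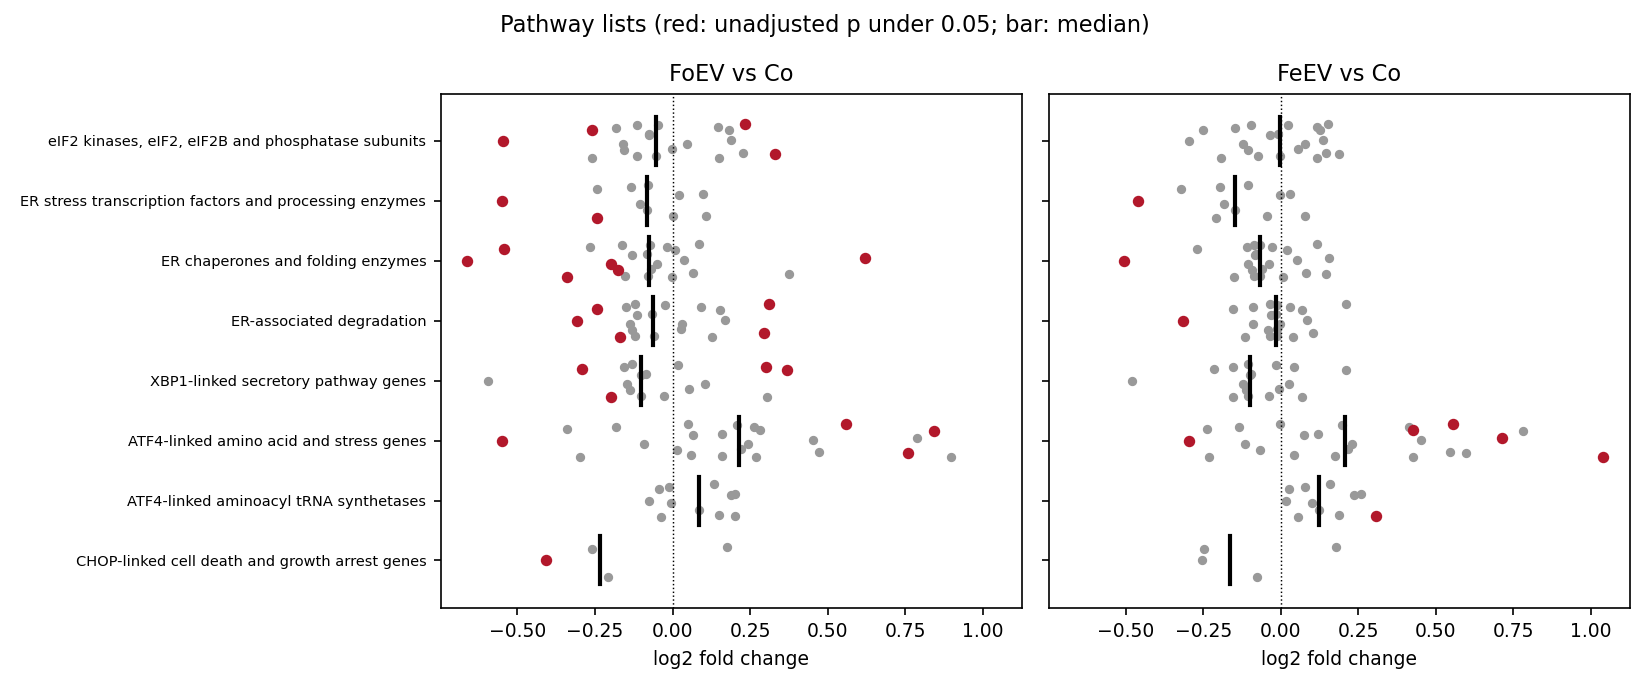
Log2 fold changes (horizontal axes) of the tested genes of the 8 pathway lists in FoEV vs Co and in FeEV vs Co, 1 point per gene, with red for an unadjusted p under 0.05 and a bar at the median of each list. The bar of the ATF4-linked amino acid and stress genes is at 0.21 in both panels.

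Of 21 eIF2 kinases, subunits and phosphatase subunits, 2 (9.52%) were higher and 2 (9.52%) lower in FoEV against Co at the unadjusted threshold. Over all genes 8.18% were higher and 6.88% lower. The median of the list was −0.05. EIF2AK3, the sensor PERK, averaged 39.7 ± 5.72 CPM (Co) and 27.0 ± 6.04 CPM (FoEV; SD, n = 5 each), with a log2 fold change of −0.55 (SE 0.16, edgeR adjusted p = 0.143), and EIF2S1, the subunit of eIF2 that is phosphorylated, had −0.26 (SE 0.11). EIF2B4, a subunit of the exchange factor that eIF2 needs, had 0.33 (SE 0.13), and GCN1, the partner of the amino acid sensing kinase, 0.23 (SE 0.09). In FoEV against FeEV, PPP1CC, a catalytic subunit of the phosphatase, had −0.24 (SE 0.09). Of 11 ER stress transcription factors and processing enzymes, CREBRF had −0.55 (SE 0.15) and NFE2L2 −0.24 (SE 0.11) in FoEV against Co, and CREBRF had −0.37 (SE 0.15) against FeEV. TRAF2, an adaptor of ERN1 signalling, had −0.46 (SE 0.17) in FeEV against Co, with every FeEV library below every Co library (0.951% of all genes did not overlap there). Its FoEV libraries were also all below every Co library (2.6% of all genes did not overlap there), with −0.24 (SE 0.16). Of 4 cell death and growth arrest genes linked to CHOP, BCL2L11, which promotes apoptosis, had −0.41 (SE 0.16) in FoEV against Co and −0.33 (SE 0.16) against FeEV. DNAJB9, SLC38A2, EIF2AK3, CREBRF and HSPA13 are also among the genes that the study picked from these libraries, so their direction here is not independent evidence.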

How the data were processed

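Total RNA of 15 pools of blastocysts was sequenced with a low-input kit that depletes rRNA and selects strand. The authors mapped single-end reads to the bovine assembly ARS-UCD1.2 (bosTau9, NCBI annotation) and deposited raw counts per gene without normalization, for 34773 genes and for the 10832 that they kept. The submitters' processing notes name Trim Galore 0.4.3.1, HISAT2 2.1.0 and featureCounts 1.6.3, whereas the methods name QuasR for counting. Whether counting used strand is not given in the sources used here, so reads of overlapping antisense genes cannot be told apart. Labels give embryos of day 7, and the methods a longer culture.

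Samples were grouped by their titles. Nothing shows that pools of 1 treatment came from separate experiments, so p-values measure the spread between these pools. The filtered counts were fitted in edgeR 4.0.16 (R 4.3.3) with TMM scaling, estimateDisp and glmQLFit (robust), and tested by glmQLFTest from 1 fit over 15 libraries. Log2 CPM used a prior count of 2. Exact tests and 100000 permutations were run in Python 3.11.15 with scipy 1.17.1. Alternatives were DESeq2 1.42.0, the likelihood ratio test with robust dispersion of the methods, other filters, removal of rRNA genes, blocks by replicate number, 2 groups alone and leaving out each library. The test was tested on simulated counts for FoEV against Co. Where 200 of 10832 genes carried a log2 change of 1, it found 78% of these and 6.02% of its calls were false, and where none did, it called 1. The likelihood ratio test found 87% with 24.0% false calls, and called 12 where none did. The Wald test of DESeq2 found 80% with 10.1% false calls, and called 2 where none did. Each setting was drawn once. The planted change was larger than that of any of the 10 genes in the main fit, where PPP1R15A reached −0.66 in FeEV against Co. Recovery of smaller changes was not tested.

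The members and lists were chosen with earlier results of these data known. Named were the 10 genes, up to 2 genes per list, comparison and direction with the smallest unadjusted p under 0.05, the partners DNAJB9 and HSPA5, and the 3 genes most like each of the 10. An item that this rule names is not reported here. The description of FoEV replicates 1 and 4 in the lists was chosen after the values were seen. Symbols came from a RefSeq table of a later assembly, joined by gene identifier for 10709 of 10832 genes. Its coordinates were not used, and levels were not compared between genes, since no transcript length was at hand.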

Additional observations from a re-analysis of the deposited data

Results flagged for a closer look

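In 30 groups of 5 libraries (10 genes in 3 treatments), a single library was set apart by a gap to its neighbour that was large against the range of its group in 3 cases, and chance gives about 1 such group in 20. DDIT3 stood at 27.5 CPM in FeEV replicate 3, with a gap of 0.833 of the range. TRIB3 stood at 6.42 CPM in Co replicate 4, on 16 counts, with a gap of 0.757 of the range. TRIB3 stood at 30.0 CPM in FoEV replicate 4, on 90 counts, with a gap of 0.785 of the range. CREB3L4, an ER stress transcription factor that the filtered table does not hold, had a mean of 2.32 CPM in the FoEV libraries of the unfiltered table. These ran from 1.64 to 2.99 CPM, above the Co libraries, which ran from 0 to 1.59 CPM. The FeEV libraries, from 0.45 to 2.65 CPM, overlapped both. Values this low rest on few counts, and FoEV and Co did not overlap for 2.6% of the genes of the filtered table.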

How the results depend on the processing

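In FoEV against Co 1 gene was called over all genes, and 144 were with the Wald test of DESeq2, 311 with the likelihood ratio test, 173 with no filter on low counts, 5 with the 2 groups alone, and 0 to 58 without a library in turn. In FeEV against Co the count was 0, with 1, 6 and 13 by the first 3 of these, and 0 without any library. In FoEV against FeEV it was 0, with 3, 31 and 22, and 0 to 1 without a library in turn. Of the 10 genes, 4 had an unadjusted p under 0.05 in FoEV against Co, beside 15.1% of all genes. Without a library in turn 1 to 5 had, beside 11.5% to 18.1%. In FeEV against Co 2 of the 10 had, beside 4.15% of all genes (2 to 3 without a library in turn, beside 2.9% to 5.63%). In this comparison ASNS, ATF4 and PPP1R15A had with the likelihood ratio test, no filter and the 2 groups alone, beside 6.13%, 4.46% and 5.05%. In FoEV against FeEV 0 of the 10 had, beside 8.52% of all genes (0 to 2 without a library in turn, beside 5.87% to 11.4%). But 1 did with the size factors of DESeq2, its Wald test, the likelihood ratio test and the filter of the methods, beside 8.58%, 8.33%, 11% and 8.61%. With no filter 3 did, beside 7.9%. Of the 10 pairs, 4 passed with Pearson r, 1 with Spearman rho, and 1 to 5 without a library in turn. HERPUD1 with no filter, in FoEV against Co, was the only case of an adjusted p under 0.05 among the 10 genes in these fits.

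Samples that share a replicate number in the titles did not deviate together throughout: over 15 pairs r ran from −0.29 to 0.44 (7 above 0.1). Their mean r was 0.12, beside −0.03 for samples with other numbers. Library numbers of the descriptions gave −0.20 to 0.44 over 10 pairs (3 above 0.1), with a mean of 0.08 beside −0.01 for other numbers. With the replicate block, 57 genes were called in FoEV against Co, and 3 pairs passed. There 2 of the 10 genes, HERPUD1 and PPP1R15A, had an unadjusted p under 0.05, beside 17.6% of all genes. With the block by description numbers, 12 genes were called in FoEV against Co, and 1 in FoEV against FeEV. In this block 4 of the 10 genes, ASNS, ATF4, DDIT4 and TRIB3, passed the unadjusted threshold in FoEV against Co, beside 14.6% of all genes. The same 4 passed it in FeEV against Co, beside 5.12%, and 1, ERN1, in FoEV against FeEV, beside 6.28%. HERPUD1 and PPP1R15A did not pass it there, with −0.32 (edgeR's unadjusted p = 0.226) and −0.29 (unadjusted p = 0.202) in FoEV against Co, and PPP1R15A had −0.41 (unadjusted p = 0.0806) in FeEV against Co. DDIT4 had 0.45 and 0.47, and TRIB3 had 0.59 in FeEV against Co. The exact test over pairs with the replicate block cannot go below 0.0625, which ATF4, ASNS and PPP1R15A reached in FeEV against Co, and HERPUD1 in FoEV against Co had 0.25.

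Values close to 0 changed sign. In FeEV against Co leaving out a library in turn gave log2 fold changes from −0.040 (without Co replicate 2) to 0.17 for ATF6, from −0.21 to 0.069 (without FeEV replicate 2) for HERPUD1, and from −0.15 to 0.012 (without FeEV replicate 2) for XBP1, and HERPUD1 had 0.13 with the description block. In FoEV against FeEV, ATF4 had −0.011 with the likelihood ratio test, −0.047 with the description block and −0.12 (without FoEV replicate 4) to 0.17 without a library in turn, and ASNS had −0.29 to 0.015 (without FoEV replicate 1). DDIT3 had −0.042 both with the likelihood ratio test and with the description block, −0.0012 with no filter, and −0.14 to 0.10 without a library in turn. DDIT4 had −0.027 with the description block and −0.086 to 0.27 without a library in turn. XBP1 had −0.0014 with the size factors of DESeq2, −0.0015 with its Wald test, −0.0067 with the likelihood ratio test, −0.0073 with no filter, −0.0007 with the filter of the methods, −0.025 with the description block and −0.077 to 0.083 without a library in turn. The cause of these changes was not tested.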
